A study of Homo sapiens with 14 samples.

Results

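The 38 genes described here carry glucose from the cell surface to the entry of pyruvate into mitochondria, and were chosen by pathway membership from a list of symbols covering glucose uptake, the steps of glycolysis with their isoenzymes, lactate formation and export, and the supply and control of the pyruvate dehydrogenase complex. Earlier results of these data were known when they were chosen. All 38 were found among the 27142 genes of the count table, and all 38 passed the filter on low counts that kept 13371 genes for testing. Messenger RNA was measured by polyadenylated RNA sequencing in IMR90, an established, genetically unmodified line of human fetal lung fibroblasts. The cells received 20 uM 2'3'-dideoxycytidine (ddC), a nucleoside that stops the mitochondrial polymerase and so depletes mitochondrial DNA, for 24, 48, 72 or 96 h, with 3 libraries at each time. They were compared with 2 libraries of untreated wild-type IMR90 cells, which the design text places at 0 h and the sample labels describe as given water, with a time of 4 days. How long the untreated cells had been in culture is therefore uncertain, and time in culture cannot be told apart from time in ddC. All groups are of 1 cell line. Counts are relative to each library's total, so a change in total RNA per cell cannot be seen. The design text calls the libraries biological replicates without saying whether they were separate cultures, so the p-values below measure the spread between these libraries.

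Glycolysis splits glucose into pyruvate in the cytosol and yields ATP and NADH without oxygen or mitochondria. Pyruvate then takes either of these routes: lactate dehydrogenase reduces it to lactate, which regenerates NAD+ and leaves the cell through monocarboxylate transporters, or the mitochondrial pyruvate carrier delivers it to the pyruvate dehydrogenase complex, which makes acetyl-CoA and is switched off by pyruvate dehydrogenase kinases. Fibroblasts in culture carry out much glycolysis even with working mitochondria, and many genes of the pathway are known targets of hypoxia-inducible factors (HIF), while TXNIP and ARRDC4, which hold back glucose uptake, are targets of the glucose-sensing factor MondoA.

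Total counts per library ranged from 9398703 to 12147402. Fibroblast markers, other than S100A4, were abundant. The summed level of the 8 markers was 58468 to 64664 CPM (counts scaled by each library's effective size) at 96 h and 51717 to 54397 CPM in untreated cells. S100A4 ran from 4.585 to 7.46 CPM over the libraries. Of the 8, 4 were called higher and 0 lower at 96 h, where 3.57% of all tested genes were higher and 2.11% lower. Among markers of other cells, CDH1, PECAM1, CDH5 and CD3E had 0 counts in every library. Over the libraries, EPCAM ran from 0.0903 to 0.794 CPM, VWF from 0.324 to 1.10 CPM and KRT19 from 2.43 to 5.83 CPM. PTPRC, CD14 and HBB ran from 0 to 0.252, 0.265 and 0.0883 CPM. The summed level of 5 epithelial markers was 71.4 to 78.4 CPM at 96 h and 54.7 to 55.5 CPM in untreated cells, and 2 of the 5, KRT8 and KRT18, were called higher at 96 h. The 4 endothelial markers summed to 38.3 to 42.7 CPM at 96 h and 39.5 to 45.6 CPM in untreated cells, nearly all of it TEK, and the 5 markers of blood cells to 48.2 to 50.1 CPM at 96 h and 51.6 to 53.8 CPM in untreated cells, nearly all of it CD68. TEK and CD68 had reads in all 14 libraries, at no less than 34.0 and 43.0 CPM. The part of these markers in the results below was not tested. MALAT1, a nuclear long noncoding RNA, varied from 52.4 to 408 CPM between libraries and as widely within the 24 h group (53.0 to 357 CPM). An antisense index was taken from 128 pairs of an abundant gene and an overlapping neighbour on the opposite strand. It is the reads of the neighbours per 1000 reads of the abundant genes. The index was 0.744 and 0.811 in untreated cells, 0.679 to 0.806 at 24 h, 0.790 to 0.982 at 48 h, 0.914 to 1.01 at 72 h and 0.983 to 1.04 at 96 h. Setting 72 or 96 h against 24 h or untreated cells thus also compared libraries of higher and lower index, and the index and the treatment time cannot be told apart. The 72 and 96 h libraries had overlapping index values, so 96 h was also set against 72 h, a comparison chosen after the data were seen.

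At 96 h of ddC, transcripts of glucose uptake, of most steps from glucose phosphate to pyruvate, of lactate formation and export and of 2 of the 4 pyruvate dehydrogenase kinases were moderately higher than in untreated cells, while those of the pyruvate dehydrogenase complex and the mitochondrial pyruvate carrier were not called. Of the 38 genes, 15 rose and 0 fell at an adjusted p under 0.05 (edgeR quasi-likelihood test, Benjamini-Hochberg adjustment over 13371 genes), where 3.57% of all tested genes rose and 2.11% fell. The 15 were SLC2A1, SLC2A3, GPI, PFKL, PFKP, ALDOA, ALDOC, TPI1, GAPDH, PGK1, ENO2, LDHA, SLC16A3, PDK1 and PDK2, with folds between 1.16 and 1.496. The median log2 fold change of the 38 was 0.19, beside -0.00 for all tested genes, and 25 of the 38 lay above 0. The 38 genes together held 1.72% ± 0.03 of all counts at 96 h and 1.57% ± 0.02 in untreated cells (SD, n = 3 and 2, exact permutation p = 0.1, the smallest that 3 against 2 libraries allow).

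The calls came at 96 h. No member passed edgeR's test at 24, 48 or 72 h against untreated cells, DESeq2 and limma-voom also called 0 at these times, and 0, 2 and 7 members had an unadjusted p under 0.05 at 24, 48 and 72 h, where 3.42%, 6.01% and 7.24% of all genes had. With the nuclear RNA score described below as a covariate, edgeR called 1 member higher at 48 h and 2 higher and 1 lower at 72 h. That fit called 14 of all genes higher and 20 lower at 48 h, and 137 higher and 110 lower at 72 h. Without the covariate, 0% of all genes rose and 0% fell at 24 h. At 48 h 0.00748% rose and 0% fell, and at 72 h 0.142% rose and 0.0374% fell. The fit without the covariate thus called hardly any gene before 96 h. Against the 24 h libraries, 13 members were higher at 96 h and 1, TXNIP, was lower, where 2.58% of all genes were higher and 0.621% lower. The 13 were SLC2A1, SLC2A3, HK2, GPI, PFKP, ALDOA, ALDOC, TPI1, GAPDH, PGK1, LDHA, SLC16A3 and PDK1. A linear slope over the 12 treated libraries was positive for those 13 and ENO2 and negative for TXNIP, where 2.96% of all genes had a called positive slope and 0.8% a called negative one. Against the 72 h libraries, 4 members (SLC2A3, ALDOC, PGK1 and PDK1) were higher at 96 h and 0 were lower by edgeR, where 0.456% and 0.0598% of all genes were. These comparisons share the 96 h libraries. The 3 libraries at 96 h lay wholly above the untreated pair in 22 members and wholly below it in 3, where 20.6% and 19.8% of all genes did, and wholly above the 24 h libraries in 20 and below them in 3, where 10.8% and 8.2% did. In 12 of the 38 genes (31.6%) all 3 libraries at 96 h lay above the other 11, which 3.47% of all tested genes did.

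**Figure D1:**
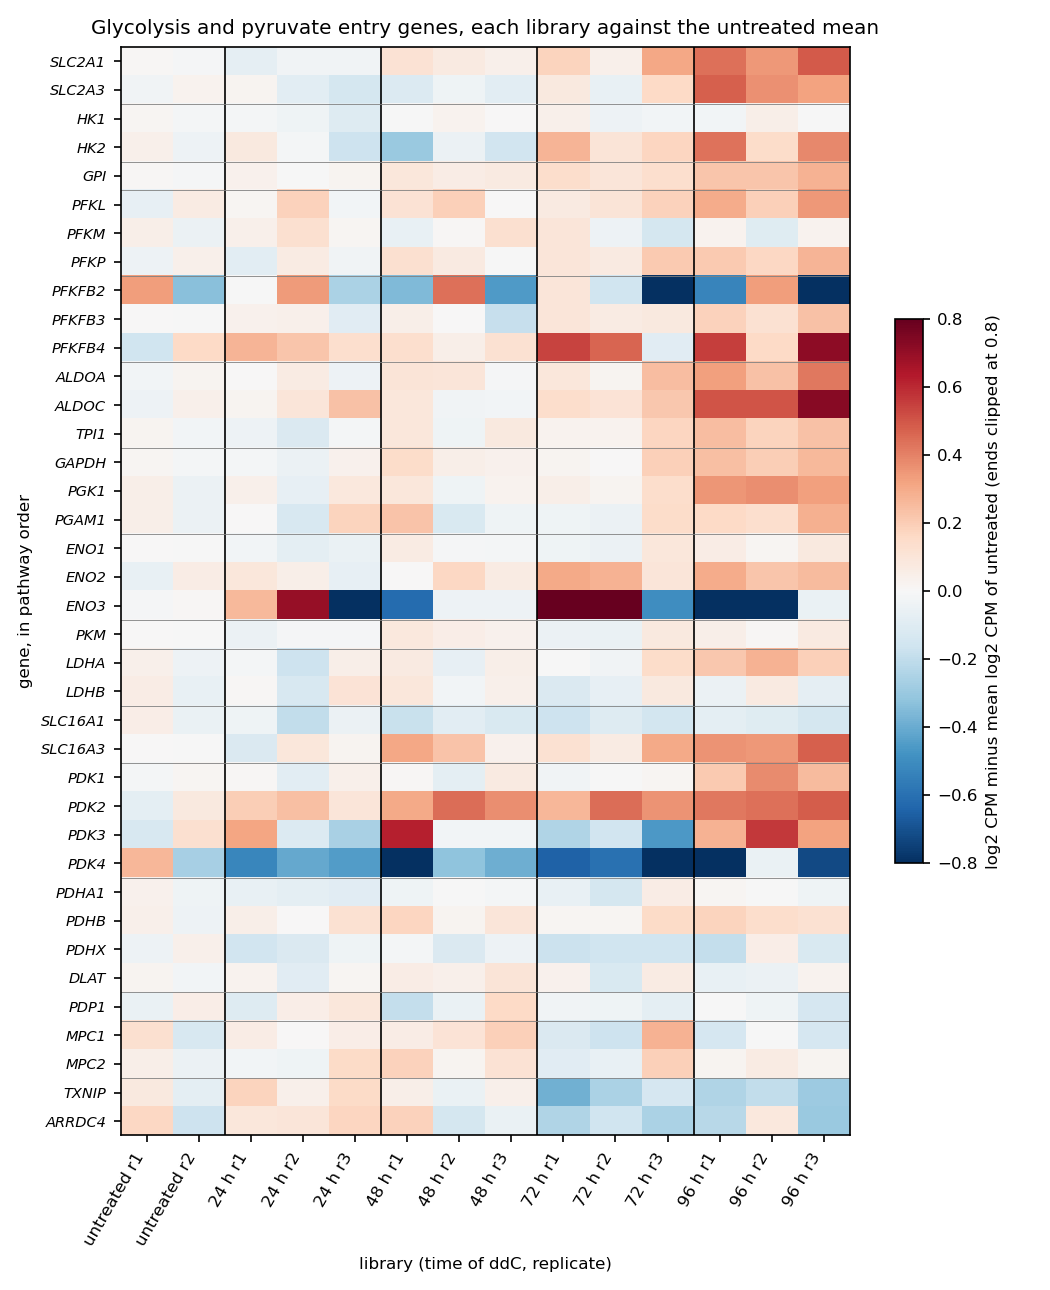
Each row is 1 of the 38 genes in pathway order and each column 1 of the 14 libraries, coloured by log2 CPM minus the mean log2 CPM of the 2 untreated libraries, clipped at 0.8 on either side. Rows of glucose uptake, aldolase, phosphoglycerate kinase and SLC16A3 are red in the 3 columns at 96 h, rows of the pyruvate dehydrogenase complex stay near white, and the TXNIP row is blue from 72 h.

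Each untreated library carried weight in these calls. Without untreated replicate 1, 3 of the 15 calls at 96 h remained, and without untreated replicate 2, 4 remained; all 15 kept their sign in both. With the antisense index as a covariate, 3 of the 15 (SLC2A1, ALDOC and SLC16A3) stayed called and all 15 kept their sign. Over all genes, 98 were called higher with the index and 477 without it. The median log2 fold change of the 15 was 0.28 with and 0.28 without the index. Their median SE was 0.11 with and 0.07 without it. With a nuclear RNA score that includes MALAT1 as a covariate, all 15 stayed called, with a median of 0.29. SLC2A1 and ALDOC passed in all 23 other analyses of the contrast with untreated cells.

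Promoters of the genes were read to show the sequence in front of the members that moved, and motifs were chosen after the results were known. RefSeq (GRCh38.p14) gave windows of 250 bases before to 50 bases after a transcription start for 34 of the 38 genes, 67 windows in all. The core of the hypoxia-response element, to which HIF binds, was searched on both strands. The core is written A or G followed by CGTG, and ACGTG is one of its 2 spellings. ACGTG stood in 37.3% of the members' windows and in 21.4% of all 35116 windows, and in at least 1 window of 21 of the 34 genes. The 21 include PFKM, PFKFB3, PDK3, PDHB, PDHX, DLAT and ARRDC4, which were not called in any contrast. Whether ACGTG goes with being called was not tested. The palindrome CACGTG, an E-box that holds ACGTG on each strand and so counts as a pair of ACGTG matches, stood in 13.4% and 7.26%. The other spelling, GCGTG, stood in 46.3% of the members' windows and 36.5% of all, in 26 of the 34 genes. Shown are ALDOC (chr17:28576846-28577145, minus strand), PGK1 (chrX:78103998-78104297, plus strand) and LDHA (chr11:18394313-18394612, plus strand, the upstream-most of its 2 windows), called higher at 96 h, with every ACGTG or its reverse complement in capitals.
ALDOC: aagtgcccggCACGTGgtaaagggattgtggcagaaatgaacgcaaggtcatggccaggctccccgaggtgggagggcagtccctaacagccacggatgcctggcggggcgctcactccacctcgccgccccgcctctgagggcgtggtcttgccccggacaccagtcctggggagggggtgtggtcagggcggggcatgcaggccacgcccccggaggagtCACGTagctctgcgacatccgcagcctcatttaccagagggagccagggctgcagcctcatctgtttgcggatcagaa
PGK1: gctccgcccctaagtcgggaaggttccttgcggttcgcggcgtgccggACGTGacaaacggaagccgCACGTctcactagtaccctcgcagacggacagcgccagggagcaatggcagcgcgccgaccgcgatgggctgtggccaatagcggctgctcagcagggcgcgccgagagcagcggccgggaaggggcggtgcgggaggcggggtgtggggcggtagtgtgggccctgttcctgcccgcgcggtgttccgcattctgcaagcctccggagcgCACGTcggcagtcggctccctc
LDHA: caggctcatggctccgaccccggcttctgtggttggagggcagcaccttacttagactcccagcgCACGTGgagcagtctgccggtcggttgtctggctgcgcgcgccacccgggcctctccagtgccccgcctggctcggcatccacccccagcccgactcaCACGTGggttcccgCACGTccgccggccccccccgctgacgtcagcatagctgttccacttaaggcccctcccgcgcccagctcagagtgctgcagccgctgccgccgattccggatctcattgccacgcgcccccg
The 3 windows hold 3, 3 and 5 matches. The window of SLC2A1, which kept its call against untreated cells in all 23 other analyses, holds 0 matches to ACGTG and is among those that hold GCGTG.

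SLC2A1 (NM_006516, hg19 chr1:43391046-43424847, minus strand) encodes GLUT1, the main basal glucose transporter of cultured cells, and SLC2A3 encodes GLUT3, a transporter of high affinity. SLC2A1 had 245 and 243 CPM in untreated cells. With ddC, SLC2A1 had 232, 239 and 239 CPM at 24 h, 264, 256 and 250.3 CPM at 48 h, 276, 251 and 302 CPM at 72 h and 331, 311 and 343 CPM at 96 h. All 3 libraries at 96 h lay above the other 11, and the libraries at 72 h lay between them and the untreated pair. The fitted log2 fold change of SLC2A1 was 0.43 ± 0.07 (SE) at 96 h against untreated cells, a fold of 1.35 (adjusted p = 4.82e-04), and 0.47 ± 0.06 against 24 h (adjusted p = 5.98e-05). SLC2A3 had 45.4 and 47.1 CPM in untreated cells. With ddC, SLC2A3 had 47.0, 43.5 and 41.9 CPM at 24 h, 42.8, 45.1 and 43.7 CPM at 48 h, 48.8, 44.4 and 51.7 CPM at 72 h and 64.5, 59.5 and 57.7 CPM at 96 h. Its libraries at 24 and 72 h overlapped with the untreated ones, those at 48 h lay just below them, and all 3 at 96 h lay above every other library. SLC2A3 rose at 96 h by a log2 fold change of 0.39 ± 0.08 (adjusted p = 0.00491) against untreated cells, and by 0.33 ± 0.07 (adjusted p = 0.0345) against 72 h. Its call against untreated cells ended without untreated replicate 1 (adjusted p = 0.0908) or replicate 2 (adjusted p = 0.0611).

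TXNIP and ARRDC4 encode arrestin-domain proteins that promote removal of glucose transporters from the cell surface, and TXNIP also binds thioredoxin. TXNIP (NM_006472, hg19 chr1:145438438-145442644, plus strand) had 136 and 122 CPM in untreated cells. With ddC, TXNIP had 146, 133 and 143 CPM at 24 h, 133, 124 and 132 CPM at 48 h, 98.6, 108 and 117 CPM at 72 h and 109, 112 and 105 CPM at 96 h. The 3 libraries at 96 h and the 3 at 72 h lay below all untreated, 24 h and 48 h libraries. TXNIP fell by 0.37 on the log2 scale at 96 h against 24 h (SE 0.07, adjusted p = 0.00181), and its slope over the treated libraries was -0.14 ± 0.02 (adjusted p = 2.82e-04) per day. Against untreated cells its log2 fold change at 96 h was -0.25 ± 0.07 (adjusted p = 0.0519), just above the threshold. DESeq2 gave an adjusted p of 0.0369 and limma-voom 0.0567. In edgeR it was 8.91e-04 with the nuclear RNA score and 0.283 with the antisense index as covariate. Without 96 h replicate 1 or 3 it was 0.12 or 0.159, and TXNIP was called in 5 of the 14 fits with 1 library left out. Without untreated replicate 1 or 2 the log2 fold change was -0.17 or -0.32. ARRDC4 had 19.9 and 15.8 CPM in untreated cells. With ddC, ARRDC4 had 18.9, 19.0 and 20.0 CPM at 24 h, 20.1, 16.0 and 17.1 CPM at 48 h, 14.98, 15.9 and 14.8 CPM at 72 h and 15.2, 18.8 and 14.4 CPM at 96 h. The ARRDC4 libraries at 96 h overlapped with the untreated pair, and its log2 fold change was -0.14 ± 0.13 (adjusted p = 0.58). Against untreated cells the main edgeR fit, with all 14 libraries and no covariate, called neither gene. The difference between them was not tested.

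TXNIP is a textbook target of MondoA and ChREBP, which bind a pair of E-box-like motifs known as a carbohydrate response element. One spelling of it, CACGNG, any 5 bases and CACGNG again, was found on either strand in 20 of 35116 windows (0.057%), and among the 34 members with a window only in that of TXNIP. The TXNIP window (chr1:145996530-145996829, minus strand) is shown with the fixed letters of that match in capitals (the upstream-most of its 2 windows; the gene lies on the other strand in hg19, the build of the counts), and the ARRDC4 window (chr15:97960453-97960752, plus strand), which lacks this spelling, with ACGTG and its reverse complement in capitals.
TXNIP: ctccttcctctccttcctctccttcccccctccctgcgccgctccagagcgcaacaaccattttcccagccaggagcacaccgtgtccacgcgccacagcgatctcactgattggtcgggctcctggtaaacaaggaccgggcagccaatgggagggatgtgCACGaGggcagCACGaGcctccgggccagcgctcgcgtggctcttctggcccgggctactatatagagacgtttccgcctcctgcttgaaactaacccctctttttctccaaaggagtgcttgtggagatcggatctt
ARRDC4: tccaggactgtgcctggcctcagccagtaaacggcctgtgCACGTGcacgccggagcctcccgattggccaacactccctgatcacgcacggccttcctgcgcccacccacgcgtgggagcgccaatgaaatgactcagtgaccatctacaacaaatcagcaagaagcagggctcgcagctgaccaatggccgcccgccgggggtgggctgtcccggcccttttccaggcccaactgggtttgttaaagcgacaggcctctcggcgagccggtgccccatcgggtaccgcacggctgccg
These matches describe the sequence and were not tested for binding.

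**Figure D2:**
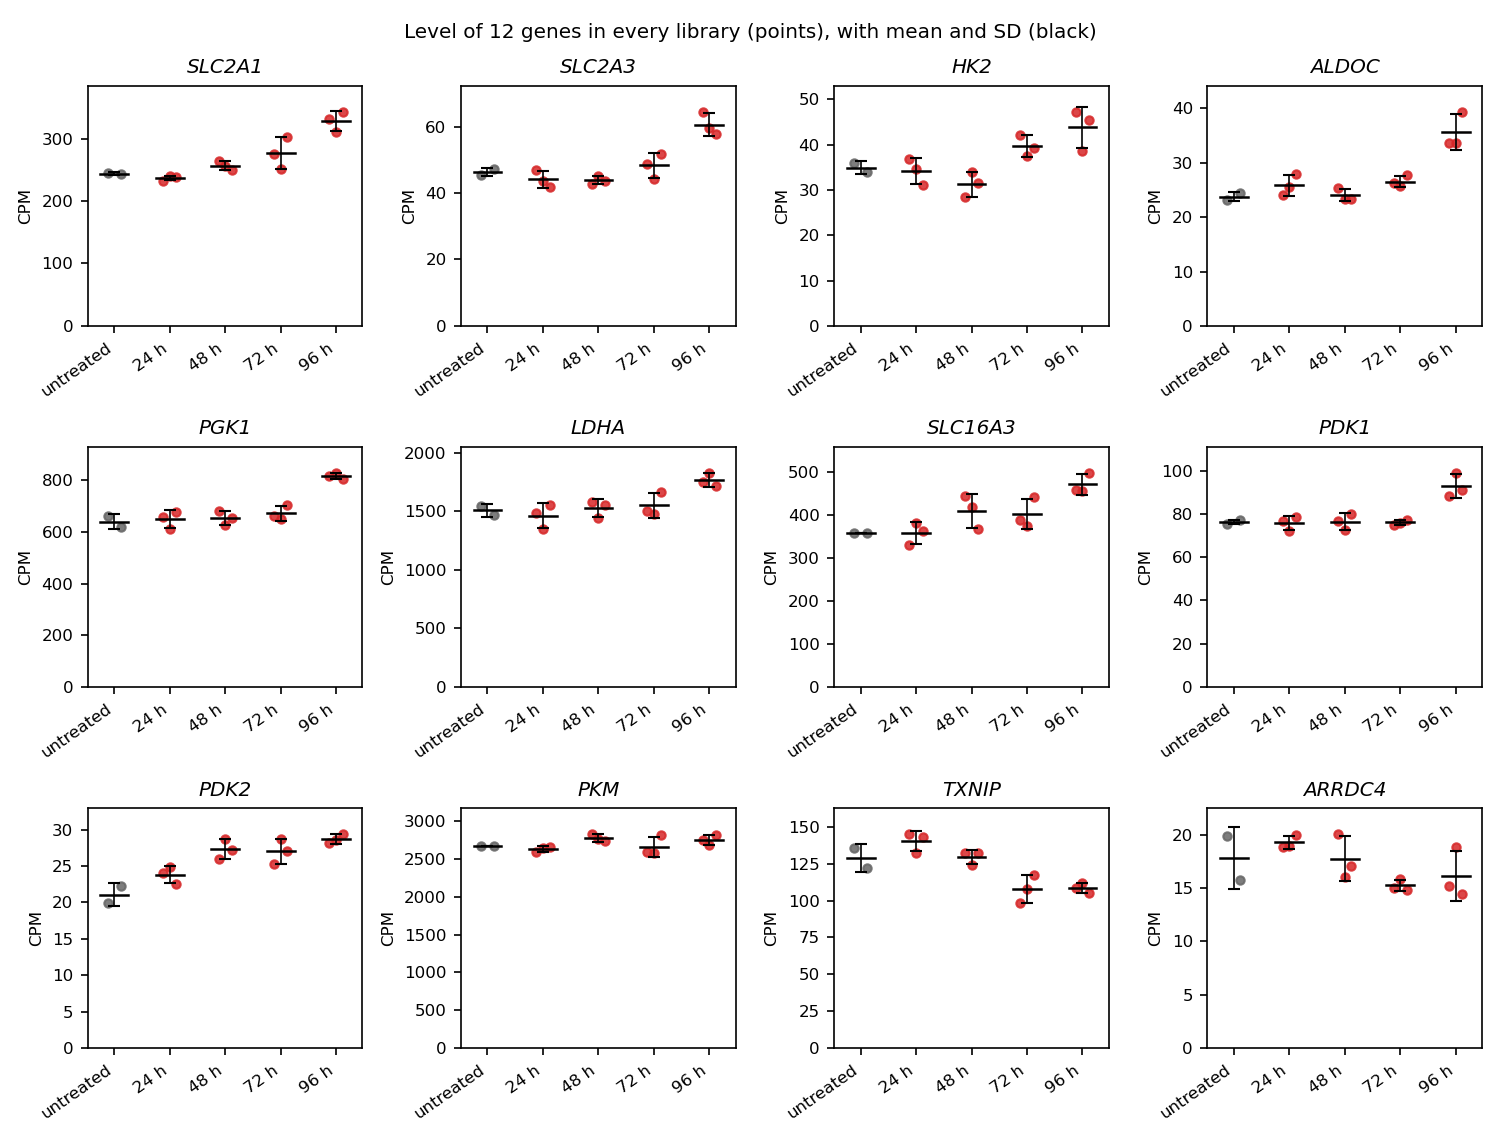
CPM of 12 genes (vertical axis, from 0) by group (horizontal axis), with 1 point per library, a black bar at the mean and the SD over the 2 untreated or 3 treated libraries. SLC2A1, SLC2A3, ALDOC, PGK1, LDHA, SLC16A3 and PDK1 have all 3 points at 96 h above every other point, PDK2 is above the untreated pair at every time, and TXNIP is low at 72 and 96 h.

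Hexokinase traps glucose as glucose 6-phosphate, and HK1 is the housekeeping form while HK2 is the inducible one. HK2 had 35.9 and 33.9 CPM in untreated cells. With ddC, HK2 had 36.8, 34.6 and 31.1 CPM at 24 h, 28.5, 33.9 and 31.4 CPM at 48 h, 42.2, 37.4 and 39.3 CPM at 72 h and 47.3, 38.6 and 45.5 CPM at 96 h. All 3 libraries at 96 h lay above both untreated libraries and above all 24 h libraries. HK2 was called against 24 h (0.36 ± 0.09, adjusted p = 0.0255) and missed the threshold against untreated cells (0.33 ± 0.10, adjusted p = 0.057). HK1 ranged from 167 to 186 CPM over the 14 libraries and was not called (0.01 ± 0.06, adjusted p = 0.961). GPI, which converts glucose 6-phosphate to fructose 6-phosphate, had 251 and 247 CPM in untreated cells. With ddC, GPI had 255, 248 and 253 CPM at 24 h, 265, 260.1 and 262 CPM at 48 h, 275, 266 and 273 CPM at 72 h and 289.9, 290.4 and 302 CPM at 96 h. The 96 h libraries were above all others, and 11 of the 12 treated libraries were above both untreated ones. GPI rose by a log2 fold change of 0.24 ± 0.05 (adjusted p = 0.0073). The call of GPI ended without untreated replicate 1 (adjusted p = 0.0651) or replicate 2 (adjusted p = 0.119), and that of HK2 against 24 h ended without replicate 2 or 3 at 24 h (adjusted p = 0.0549 and 0.097) and without replicate 1 or 3 at 96 h (adjusted p = 0.159 and 0.132).

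Phosphofructokinase commits the sugar to glycolysis, and its liver-type subunit PFKL and platelet-type subunit PFKP rose while the muscle-type PFKM was not called. PFKL had 125 and 137 CPM in untreated cells. With ddC, PFKL had 132, 148 and 129 CPM at 24 h, 141, 149 and 131 CPM at 48 h, 137, 140.1 and 148 CPM at 72 h and 160.3, 149 and 166 CPM at 96 h. PFKP had 446 and 472 CPM in untreated cells. With ddC, PFKP had 433, 481 and 451 CPM at 24 h, 501, 482 and 457 CPM at 48 h, 491, 483 and 532 CPM at 72 h and 530.4, 514 and 555 CPM at 96 h. For both genes the 96 h libraries lay above the untreated pair, and for PFKL also above every other library. The log2 fold change at 96 h was 0.28 ± 0.08 (adjusted p = 0.031) for PFKL, 0.22 ± 0.06 (adjusted p = 0.0457) for PFKP and -0.01 ± 0.08 (adjusted p = 0.947) for PFKM. PFKFB2, PFKFB3 and PFKFB4 make or remove a fructose bisphosphate, the strongest activator of phosphofructokinase, and 0 of the 3 were called by edgeR. PFKFB4 was the one with the smallest p and had 11.2 and 13.9 CPM in untreated cells. With ddC, PFKFB4 had 15.1, 14.5 and 13.7 CPM at 24 h, 13.7, 12.9 and 13.6 CPM at 48 h, 18.2, 17.2 and 11.7 CPM at 72 h and 18.3, 13.9 and 20.5 CPM at 96 h. Its lowest library at 96 h stood at about the upper untreated value, so the groups overlapped, and its log2 fold change was 0.49 ± 0.17 (adjusted p = 0.113). PFKFB3, at 108 to 117 CPM at 96 h and 98.9 to 99.2 CPM in untreated cells, had all 3 libraries at 96 h above the other 11 without being called (0.18 ± 0.07, adjusted p = 0.136). The calls of PFKL and PFKP ended without either untreated library (adjusted p = 0.299 and 0.0897 for PFKL, 0.307 and 0.145 for PFKP) and without replicate 1 or 3 at 96 h (0.0908 and 0.133 for PFKL, 0.103 and 0.165 for PFKP). That of PFKP also ended without replicate 1 or 2 at 72 h (adjusted p = 0.0532 and 0.0516) and under the replicate block (adjusted p = 0.0649), and its call against 24 h ended without 24 h replicate 1 (0.133) or 96 h replicate 1 (0.0866) or 3 (0.129).

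Aldolase splits fructose bisphosphate, and TPI1 interconverts the triose phosphates that result. ALDOC (NM_005165, hg19 chr17:26900133-26903951, minus strand), the brain-type aldolase, showed the largest rise of the 15 called genes. It had 23.2 and 24.4 CPM in untreated cells. With ddC, ALDOC had 24.1, 25.5 and 28.0 CPM at 24 h, 25.3, 23.3 and 23.4 CPM at 48 h, 26.2, 25.7 and 27.7 CPM at 72 h and 33.7, 33.7 and 39.4 CPM at 96 h. The 3 libraries at 96 h stood above the other 11, whose highest was a 24 h library. Its log2 fold change was 0.58 ± 0.09 at 96 h against untreated cells, a fold of 1.496 (adjusted p = 6.31e-04), and 0.43 ± 0.08 (adjusted p = 0.0183) against 72 h. ALDOA, the main aldolase of these cells, had 981 and 1008 CPM in untreated cells. With ddC, ALDOA had 997, 1039.7 and 967 CPM at 24 h, 1067, 1062 and 986 CPM at 48 h, 1058, 1008 and 1180.3 CPM at 72 h and 1249.7, 1169.5 and 1329.8 CPM at 96 h. All 3 libraries at 96 h were above the untreated and 24 h libraries, and 72 h replicate 3 lay among them. TPI1 had 471 and 458 CPM in untreated cells. With ddC, TPI1 had 451, 429.5 and 459.5 CPM at 24 h, 494, 454 and 489.6 CPM at 48 h, 474, 473 and 524 CPM at 72 h and 552, 525 and 546 CPM at 96 h. ALDOA rose by 0.33 ± 0.07 (adjusted p = 0.00461) and TPI1 by 0.22 ± 0.06 (adjusted p = 0.0314) at 96 h on the log2 scale. Without untreated replicate 1 or 2 the adjusted p was 0.0765 or 0.0563 for ALDOA and 0.126 or 0.266 for TPI1, and without 96 h replicate 1 or 3 it was 0.107 or 0.0927 for TPI1.

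GAPDH, which makes the NADH of glycolysis, and PGK1, which makes ATP, both rose, and PGAM1, the phosphoglycerate mutase that follows, was not called. PGK1 (NM_000291, hg19 chrX:77359666-77382324, plus strand) had 660.3 and 621 CPM in untreated cells. With ddC, PGK1 had 658, 611 and 678 CPM at 24 h, 681, 626 and 653 CPM at 48 h, 661, 651 and 706 CPM at 72 h and 817, 829 and 803 CPM at 96 h. The 3 libraries at 96 h were the 3 highest, and every earlier group overlapped with the untreated pair. PGK1 rose by a log2 fold change of 0.35 ± 0.06 against untreated cells, a fold of 1.28 (adjusted p = 8.52e-04), and by 0.28 ± 0.05 (adjusted p = 0.0135) against 72 h. GAPDH had 3931 and 3845 CPM in untreated cells. With ddC, GAPDH had 3853, 3763 and 3986 CPM at 24 h, 4299.5, 4013 and 3986 CPM at 48 h, 3944, 3897 and 4438 CPM at 72 h and 4587, 4466 and 4646 CPM at 96 h. Its 96 h libraries were also above all others, with a log2 fold change of 0.23 ± 0.06 (adjusted p = 0.0187). PGAM1 was at 27.9 to 30.8 CPM at 96 h and 24.5 to 26.2 CPM in untreated cells (0.19 ± 0.11, adjusted p = 0.345), a low value for an enzyme of this pathway. Near-identical processed copies may take reads from several of these genes, since the human annotation names 13 pseudogenes after PGAM1, 62 after GAPDH and 6 after LDHA, so their levels are uncertain. The call of GAPDH ended without untreated replicate 1 (adjusted p = 0.0992) or 2 (0.19) and without 96 h replicate 1 (0.0622) or 3 (0.0661), while PGK1 stayed called against untreated cells whichever 1 library was left out. Against 72 h the call of PGK1 ended without 72 h replicate 1 (adjusted p = 0.105) or 2 (0.115) and without 96 h replicate 1 (0.065) or 2 (0.0572).

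Enolase and pyruvate kinase, the last steps before pyruvate, were not called in their main forms, ENO1 and PKM, and the minor form ENO2 rose. ENO2, the neuronal-type enolase, had 85.4 and 93.1 CPM in untreated cells. With ddC, ENO2 had 95.0, 92.0 and 85.3 CPM at 24 h, 89.2, 99.98 and 93.3 CPM at 48 h, 110.2, 108 and 95.5 CPM at 72 h and 109.5, 104 and 106 CPM at 96 h. The 96 h libraries lay above the untreated pair and the 24 h libraries but among those at 72 h. The log2 fold change was 0.26 ± 0.07 (adjusted p = 0.0457) for ENO2, 0.05 ± 0.05 (adjusted p = 0.641) for the ubiquitous ENO1 and -0.54 ± 0.48 (adjusted p = 0.584) for the muscle-type ENO3, which stood at 0.957 to 1.77 CPM at 96 h and 1.82 to 1.85 CPM in untreated cells. The ENO2 call ended when any 1 of 10 of the 14 libraries (adjusted p from 0.0526 to 0.359) was left out, both untreated libraries and all 3 at 96 h among them. PKM, which forms pyruvate, had 2675 and 2672 CPM in untreated cells. With ddC, PKM had 2591, 2654 and 2657 CPM at 24 h, 2837, 2772 and 2738 CPM at 48 h, 2590.5, 2579.8 and 2819.7 CPM at 72 h and 2759.8, 2689.6 and 2814 CPM at 96 h. Its 96 h libraries were slightly above the untreated pair and overlapped with the 48 h libraries, and it was not called (0.04 ± 0.05, adjusted p = 0.692).

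Lactate dehydrogenase is built from LDHA and LDHB subunits. LDHA (NM_005566, hg19 chr11:18415936-18429765, plus strand), the subunit known for favouring lactate formation, had 1548 and 1465 CPM in untreated cells. With ddC, LDHA had 1487, 1344 and 1555 CPM at 24 h, 1582, 1440.0 and 1556 CPM at 48 h, 1503, 1476 and 1667 CPM at 72 h and 1747, 1828 and 1717 CPM at 96 h. The 3 libraries at 96 h were above the other 11, with 72 h replicate 3 the next highest. LDHB had 518 and 477 CPM in untreated cells. With ddC, LDHB had 499, 454 and 535 CPM at 24 h, 528, 488 and 511 CPM at 48 h, 459, 475 and 525 CPM at 72 h and 480.1, 522 and 474 CPM at 96 h. All groups of LDHB overlapped. The log2 fold change at 96 h was 0.23 ± 0.07 (adjusted p = 0.0468) for LDHA and -0.02 ± 0.07 (adjusted p = 0.934) for LDHB. The LDHA call against untreated cells lay close to the threshold and ended when any 1 of 9 of the 14 libraries (adjusted p from 0.0501 to 0.355) was left out, both untreated libraries and all 3 at 96 h among them, and with the replicate block (adjusted p = 0.0513). Against 24 h LDHA was called with 0.27 ± 0.06 (adjusted p = 0.0108), which ended without 24 h replicate 2 (adjusted p = 0.0594) or 96 h replicate 2 (adjusted p = 0.0506).

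Lactate crosses the plasma membrane through SLC16A3 (MCT4), known as the exporter of highly glycolytic cells, and SLC16A1 (MCT1). SLC16A3 had 359 and 358 CPM in untreated cells. With ddC, SLC16A3 had 331, 382 and 364 CPM at 24 h, 444, 419 and 367 CPM at 48 h, 389.6, 375 and 442 CPM at 72 h and 459, 456 and 499 CPM at 96 h. All 3 libraries at 96 h were above the other 11, and 11 of the 12 treated libraries lay above both untreated ones. SLC16A3 rose by 0.40 ± 0.08 (adjusted p = 0.00589) on the log2 scale, a fold of 1.32. SLC16A1, at 100.4 to 105 CPM at 96 h and 107 to 115 CPM in untreated cells, was below both untreated libraries in 10 of the 12 treated libraries and was not called at any time (-0.11 ± 0.06, adjusted p = 0.384 at 96 h). The call of SLC16A3 ended without untreated replicate 1 (adjusted p = 0.0657) or replicate 2 (adjusted p = 0.0844).

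**Figure D3:**
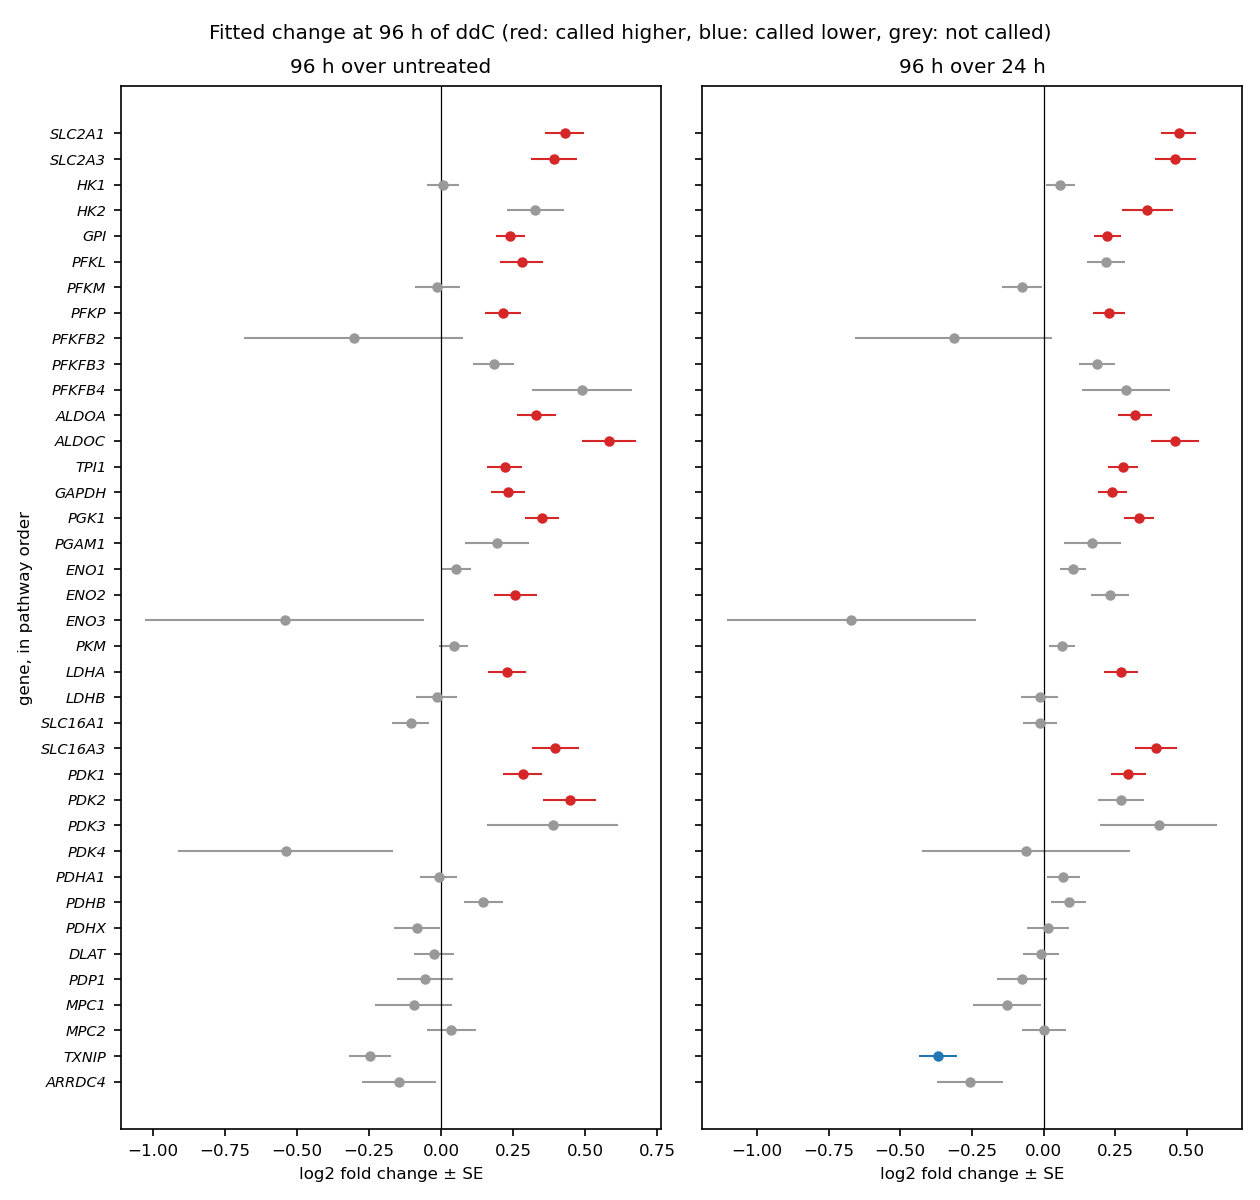
Fitted log2 fold change ± SE of the 38 genes in pathway order, from the contrast of 96 h with untreated cells (left) and of 96 h with 24 h (right), in red where called higher, blue where called lower and grey where not called. Red points run from glucose uptake to PDK1 and PDK2 on the left (15 genes), TXNIP is the blue point on the right, and the pyruvate dehydrogenase and carrier genes are grey around 0 in both panels.

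The pyruvate dehydrogenase kinases phosphorylate and switch off pyruvate dehydrogenase, and 2 of the 4 rose. PDK1, a known target of HIF, had 75.5 and 77.1 CPM in untreated cells. With ddC, PDK1 had 76.6, 72.1 and 78.3 CPM at 24 h, 76.7, 72.4 and 80.1 CPM at 48 h, 74.9, 76.0 and 77.2 CPM at 72 h and 88.3, 99.0 and 91.1 CPM at 96 h. The 96 h libraries were above all others, and the groups up to 72 h overlapped with the untreated pair. PDK2 had 19.9 and 22.2 CPM in untreated cells. With ddC, PDK2 had 24.1, 24.8 and 22.5 CPM at 24 h, 26.0, 28.7 and 27.2 CPM at 48 h, 25.3, 28.7 and 27.1 CPM at 72 h and 28.2, 28.5 and 29.4 CPM at 96 h. All 12 treated libraries of PDK2 lay above both untreated ones, which 1.64% of all tested genes did. The log2 fold change at 96 h was 0.28 ± 0.07 (adjusted p = 0.0159) for PDK1 and 0.45 ± 0.09 (adjusted p = 0.00509) for PDK2. PDK2 was at 0.18 ± 0.09, 0.37 ± 0.09 and 0.36 ± 0.09 at 24, 48 and 72 h without being called (adjusted p = 0.999, 0.44 and 0.154). PDK1 was called against 72 h (0.29 ± 0.06, adjusted p = 0.0309), and PDK2 was not (0.09 ± 0.08, adjusted p = 0.681). PDK3 and PDK4 stood at 4.49 to 5.48 CPM and 0.951 to 1.74 CPM at 96 h, against 3.38 to 4.06 CPM and 1.499 to 2.17 CPM in untreated cells, and neither was called. The PDK1 call against untreated cells ended without untreated replicate 1 (adjusted p = 0.139) or 2 (0.121) or 96 h replicate 2 (0.0626), and that of PDK2 without untreated replicate 1 (0.122).

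None of the genes of the complex itself, of its phosphatase or of the carrier was called in any of the 7 contrasts. PDHA1 and PDHB form its decarboxylase, DLAT its acetyltransferase, and PDHX anchors the dihydrolipoamide dehydrogenase. PDHB had the smallest p of the complex and had 94.2 and 88.7 CPM in untreated cells. With ddC, PDHB had 94.4, 91.6 and 99.5 CPM at 24 h, 103, 92.9 and 97.9 CPM at 48 h, 92.3, 92.4 and 102 CPM at 72 h and 103, 101 and 99.4 CPM at 96 h. Its 96 h libraries lay above the untreated pair, with a log2 fold change of 0.15 ± 0.07 (adjusted p = 0.232). PDHA1, PDHX and DLAT had log2 fold changes of -0.01 ± 0.06, -0.08 ± 0.08 and -0.02 ± 0.07 at 96 h, with overlapping libraries. PDP1, a phosphatase that reactivates the complex, had 29.8 and 32.2 CPM in untreated cells. With ddC, PDP1 had 28.8, 32.2 and 33.0 CPM at 24 h, 27.2, 29.9 and 34.6 CPM at 48 h, 30.4, 30.2 and 29.4 CPM at 72 h and 30.9, 30.3 and 28.3 CPM at 96 h. MPC1, a subunit of the carrier, had 14.5 and 12.2 CPM in untreated cells. With ddC, MPC1 had 13.8, 13.3 and 13.8 CPM at 24 h, 13.8, 14.3 and 15.1 CPM at 48 h, 12.3, 11.9 and 16.1 CPM at 72 h and 12.099, 13.2 and 12.12 CPM at 96 h. Both genes overlapped with the untreated pair at every time, while the 3 MPC1 libraries at 96 h lay below all 24 h and 48 h libraries. Against untreated cells the log2 fold changes at 96 h were -0.06 ± 0.10 (adjusted p = 0.803) for PDP1 and -0.09 ± 0.13 (adjusted p = 0.748) for MPC1. The other carrier subunit MPC2 was at 56.6 to 58.4 CPM at 96 h and 54.0 to 57.7 CPM in untreated cells (0.04 ± 0.09).

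In all, 17 of the 38 genes were called in at least 1 of the 7 contrasts, as were 6.72% of all tested genes, and 21 were not. The log2 fold changes of these 21 at 96 h against untreated cells ran from -0.54 (ENO3) to 0.49 (PFKFB4), 9 of them above 0, with SEs from 0.05 to 0.48. The widest SEs belonged to the scarce transcripts PFKFB2, ENO3, PDK3 and PDK4.

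Levels of different genes were compared per length, as CPM divided by transcript length in kilobases. GAPDH was the most abundant of the 38, at 3285 ± 66.2 CPM per kb at 96 h and 2797 ± 43.7 in untreated cells (SD, n = 3 and 2). ENO1 (1028 ± 23.3 at 96 h and 993 ± 5.10 in untreated cells) and PKM (1010.5 ± 22.9 and 981 ± 0.9) came next and lay within each other's spread at 96 h. LDHA followed with 803 ± 26.2 CPM per kb at 96 h and 685 ± 26.5 in untreated cells, then ALDOA with 726 ± 46.6 and 578 ± 11.1. In each family with a called member, the abundant form stayed the abundant one: HK1 made up 89.1% ± 1.249 of hexokinase transcripts at 96 h and 91.05% ± 0.2 in untreated cells, PFKP 75.1% ± 0.418 and 74.6% ± 0.338 of phosphofructokinase, ALDOA 97.1% ± 0.134 and 97.6% ± 0.0446 of ALDOA and ALDOC together, and ENO1 95.8% ± 0.0631 and 96.3% ± 0.231 of enolase. The rises of ALDOC and ENO2 were thus rises of minor forms.

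The 7 ratios of isoenzymes were tested over libraries, where no permutation of 3 against 2 can go below 0.1, so no ratio could pass at 96 h alone. The log2 ratio of LDHA over LDHB per length was 0.83 and 0.87 in untreated cells, 0.82, 0.81 and 0.79 at 24 h, 0.83, 0.81 and 0.85 at 48 h, 0.96, 0.88 and 0.92 at 72 h, and 1.11, 1.06 and 1.11 at 96 h. The 3 values at 96 h were the highest of the 14, and those at 72 h the next. All values at 24 h lay below the untreated pair, and those at 48 h within or below it. The mean was 1.09 ± 0.03 at 96 h and 0.85 ± 0.03 in untreated cells (SD, n = 3 and 2, exact two-sided permutation p = 0.1, adjusted over 7 ratios 0.175). The log2 ratio of SLC16A3 over SLC16A1 was 2.58 and 2.68 in untreated cells, 2.56, 2.92 and 2.70 at 24 h, 3.12, 2.94 and 2.79 at 48 h, 2.92, 2.81 and 3.08 at 72 h, and 3.07, 3.08 and 3.25 at 96 h. Both untreated values were among the lowest, below 11 of the 12 treated ones, and the means were 3.13 ± 0.10 at 96 h and 2.63 ± 0.07 in untreated cells (exact permutation p = 0.1, adjusted 0.175). LDHA made up 68.1% ± 0.457 of LDHA and LDHB together at 96 h and 64.3% ± 0.46 in untreated cells. The ratios HK2 over HK1, ALDOC over ALDOA and ENO2 over ENO1 were higher at 96 h by 0.32, 0.25 and 0.21 on the log2 scale, those of PDK1 over PDK2 and PFKP over PFKL lower, at -0.17 and -0.06, with adjusted exact permutation p from 0.175 to 0.3. With all 12 treated libraries against the untreated pair, where the smallest possible p is 0.011, PDK1 over PDK2 differed by -0.27 on the log2 scale (exact permutation p = 0.044, adjusted 0.308) and SLC16A3 over SLC16A1 by 0.30 (exact permutation p = 0.0879, adjusted 0.308). The adjusted p of the other 5 ran from 0.41 to 0.604.

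**Figure D4:**
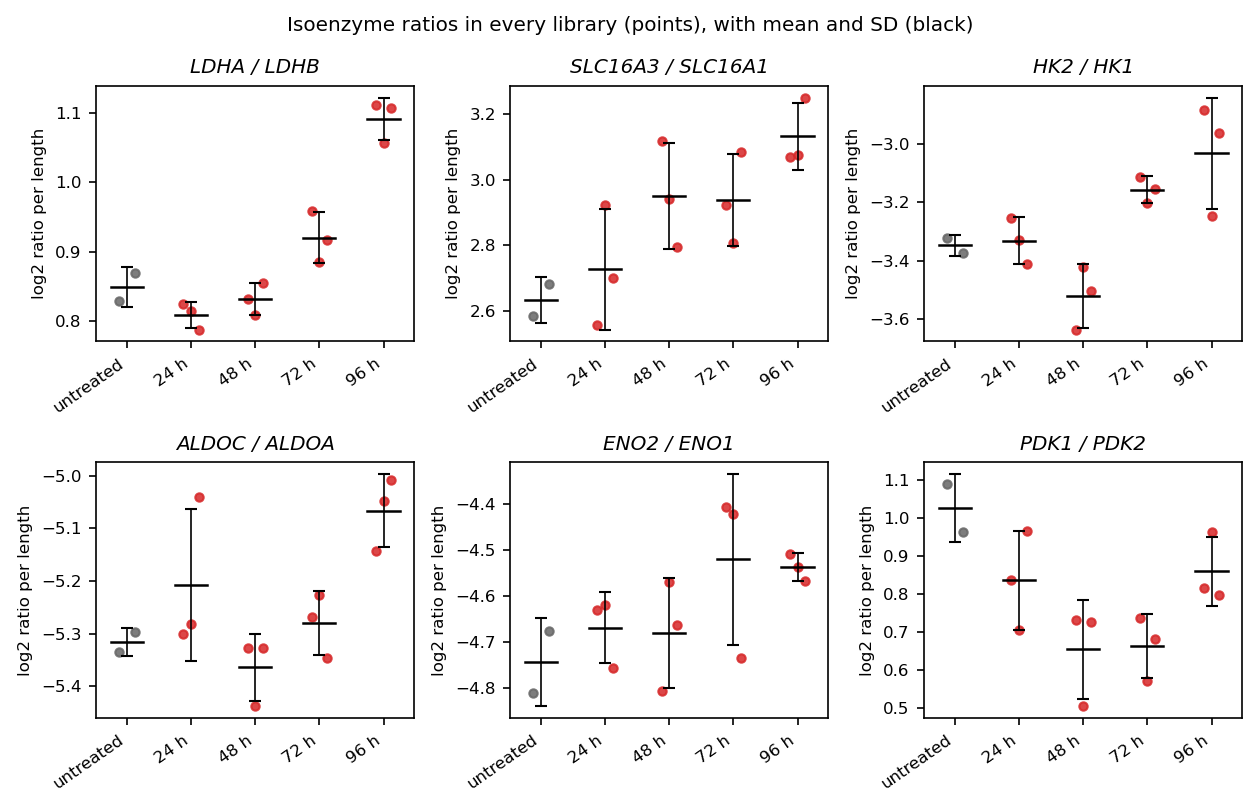
Log2 ratio of the first over the second isoenzyme, per length (vertical axis), by group (horizontal axis), for 6 pairs, with 1 point per library and black bars at the mean ± SD over the 2 untreated or 3 treated libraries. LDHA over LDHB climbs at 72 and 96 h, and PDK1 over PDK2 is below the untreated mean at every time.

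Genes around the pathway were read from lists at 96 h against untreated cells, where 3.57% of all genes rose and 2.11% fell. The lists were chosen with earlier results of these data known, so their counts are not independent of these data. Of 22 HIF targets outside glycolysis, 14 rose and 0 fell, with a median log2 fold change of 0.38, and all 22 lay above 0. DDIT4, an inhibitor of the growth kinase mTORC1, averaged 119 ± 7.76 CPM at 96 h and 64.4 ± 2.52 CPM in untreated cells (0.88 ± 0.08, adjusted p = 6.96e-07). NDRG1, a stress-response gene, averaged 145 ± 1.39 CPM at 96 h and 101 ± 2.15 CPM in untreated cells (0.52 ± 0.06, adjusted p = 2.44e-05), and P4HA1, a collagen prolyl hydroxylase, 582 ± 23.6 CPM at 96 h and 392 ± 27.8 CPM in untreated cells (0.57 ± 0.07, adjusted p = 3.96e-05). The SDs are over 3 and 2 libraries. Of 5 genes of the factors themselves and their regulators, EPAS1, which encodes a HIF alpha subunit, rose to 514 ± 9.34 CPM at 96 h, against 341 ± 1.55 CPM in untreated cells (0.59 ± 0.06, adjusted p = 7.53e-06), and HIF1A, ARNT, HIF1AN and VHL were not called. Against 72 h, a contrast chosen after the data were seen, 7 of the 22 HIF targets were higher at 96 h and 0 lower. Of all tested genes, 0.456% were higher and 0.0598% lower.

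Of 20 other glycolytic isoenzymes, glucose carriers and regulators tested, 3 rose and 1 fell, with a median of 0.04. GPD2, the mitochondrial glycerophosphate dehydrogenase that passes electrons from cytosolic NADH to the respiratory chain, fell to 60.9 ± 3.51 CPM at 96 h, against 76.7 ± 4.29 CPM in untreated cells (-0.33 ± 0.07, adjusted p = 0.00581). PCK2, the mitochondrial phosphoenolpyruvate carboxykinase, averaged 78.3 ± 5.69 CPM at 96 h and 60.5 ± 4.61 CPM in untreated cells (0.37 ± 0.08, adjusted p = 0.00759), and the glucose carrier SLC2A10 77.5 ± 2.93 CPM at 96 h and 65.0 ± 2.57 CPM in untreated cells (0.25 ± 0.07, adjusted p = 0.0264). In glycogen metabolism 3 of 19 rose and 0 fell, namely PGM1, which links glycogen breakdown to glycolysis (0.42 ± 0.07, adjusted p = 6.20e-04), PYGL, a glycogen phosphorylase (0.32 ± 0.07, adjusted p = 0.01), and PPP1R3C, a subunit that targets a phosphatase to glycogen (0.31 ± 0.09, adjusted p = 0.038). Of 10 genes of the pentose phosphate branch and 7 of citrate synthesis and the first steps of the tricarboxylic acid cycle, edgeR called 0, with 2 and 3 genes at an unadjusted p under 0.05, as 19.8% of all genes were, and medians of -0.03 and -0.14.

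Within a time, the libraries were not alike. The 38 genes held 1.70% of counts in 72 h replicate 3, against 1.58% and 1.54% in 72 h replicates 1 and 2. MALAT1 stood at 80.4 CPM in replicate 3 and at 393 and 408 CPM in replicates 1 and 2, and its part in the difference was not tested. At 96 h the share was 1.71%, 1.70% and 1.75% with MALAT1 at 188, 75.9 and 120.2 CPM. The 4 calls of 96 h against 72 h became 0 in the 8 libraries with MALAT1 under 200 CPM, which keep 1 library at 72 h, and 0 of the 4 remained without 72 h replicate 1 or 2 or 96 h replicate 1, and 1 without 96 h replicate 2 or 3. All 4 kept their sign, with a median log2 fold change of 0.31 in the full data, 0.31, 0.28 and 0.30 without those 3 libraries, 0.31 and 0.32 without 96 h replicate 2 or 3, and 0.25 in the 8 libraries. Those 8 libraries also keep only 1 untreated library (replicate 1) and 1 library at 24 h (replicate 3). The spread of such a group is assumed to be that of the others. In them, all 15 genes called against untreated cells and all 13 called higher than at 24 h kept their sign. Some genes of each contrast were no longer called. The median log2 fold change was 0.32 against untreated cells, where the full data gave 0.28. Against 24 h it was 0.27, where the full data gave 0.32.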

How the data were processed

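Raw counts per gene were deposited by the authors as 1 table of 27142 genes and 14 libraries. Per the labels' protocols, libraries came from a stranded mRNA kit. Per the submitters' processing notes, STAR 2.5.3a, HOMER and hg19 were used. Strand setting and filters are not given in the sources used here, but VIM-AS1 held 0.155% as many counts as VIM, which overlaps it on the other strand, so the table was taken to be stranded. Coordinates of genes are those of the table, and promoter windows are from RefSeq on GRCh38.p14, used for sequence alone. Mitochondrially encoded genes were not analysed here.

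All 14 libraries were fitted together with edgeR 4.0.16 in R 4.3.3 (TMM factors 0.971 to 1.02, filterByExpr with minimum count 10 and minimum total 15, robust quasi-likelihood, 1 mean per group). Two-sided p-values were adjusted by Benjamini and Hochberg's method over the 13371 genes of each contrast, and a gene below 0.05 was called. The deposited counts were the only values used. An SE is the log2 fold change divided by the square root of F. CPM are counts divided by the TMM-scaled total (for MALAT1, by the plain total). Isoenzyme ratios were tested by exact permutation. Alternatives were median-ratio size factors, DESeq2 1.42.0, limma-voom (limma 3.58.1), no filter, only the compared groups, the replicate number as a block, a nuclear RNA score or an antisense index as covariate, leaving out each library in turn, and, added after seeing the data, only libraries with MALAT1 under 200 CPM and the contrast of 96 h with 72 h.

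The members and the lists were chosen with earlier results of these data known. Values in every library are given for genes called in any contrast, for GAPDH, LDHA, LDHB, PKM, MPC1, TXNIP and ARRDC4, and for the gene with the smallest p of a step with none called. From the lists, at most 3 called genes were named by smallest p.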

Additional observations from a re-analysis of the deposited data

Results flagged for a closer look

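Levels at 96 h of ddC differed from those at 24 h (edgeR quasi-likelihood test, Benjamini-Hochberg adjustment over all genes) for 14 of the 38 genes. The log2 fold change of 96 h over 24 h was 0.47 for SLC2A1, 0.46 for SLC2A3, 0.36 for HK2, 0.22 for GPI, 0.23 for PFKP, 0.32 for ALDOA, 0.46 for ALDOC, 0.28 for TPI1, 0.24 for GAPDH, 0.33 for PGK1, 0.27 for LDHA, 0.39 for SLC16A3 and 0.29 for PDK1, each higher at 96 h. It was -0.37 for TXNIP, the only one of the 14 that was lower. All 14 had 3 libraries at 96 h that did not overlap with the 3 at 24 h. Of all 13371 genes tested, 2.58% were called higher and 0.621% lower at 96 h, and the libraries of the 2 times did not overlap in 10.8% that were higher and 8.2% that were lower. The untreated libraries cancel in this difference, and neither time has untreated cells of its own. Time in ddC and time in culture therefore cannot be told apart in it. The antisense index was 0.983 to 1.04 at 96 h and 0.679 to 0.806 at 24 h. With it as covariate, 0 of the 14 stayed called and all 14 kept their sign. Of all tested genes, 18 were then called higher and 2 lower, beside 345 and 83 without the index. The median log2 fold change of the 13 was 0.31 with and 0.32 without the index (median SE 0.12 and 0.06), and that of TXNIP was -0.41 and -0.37 (SE 0.13 and 0.07).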

How the results depend on the processing

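Counts were read as called higher or lower, and those that moved by over 1.5 times are given. For all genes, the counts of the report were 0 higher and 0 lower for 24 h, 1 higher and 0 lower for 48 h, 19 higher and 5 lower for 72 h, 477 higher and 282 lower for 96 h, 345 higher and 83 lower for 96 h against 24 h, 61 higher and 8 lower for 96 h against 72 h and 396 higher and 107 lower for the slope, where times alone are against untreated cells. With DESeq2, the counts of all genes were 1 higher for 24 h, 40 higher and 17 lower for 72 h and 98 higher and 29 lower for 96 h against 72 h, and those of members were 1 lower for 96 h. Without the filter on low counts, the counts of all genes were 1 higher for 24 h, 3 higher for 48 h, 37 higher and 10 lower for 72 h and 28 lower for 96 h against 72 h, and those of members were 1 lower for 96 h. With the compared groups fitted alone, the counts of all genes were 7 higher and 0 lower for 72 h, 903 higher and 743 lower for 96 h, 49 lower for 96 h against 24 h and 20 lower for 96 h against 72 h, and those of members were 1 lower for 96 h. With the replicate number as a block, the counts of all genes were 18 lower for 96 h against 72 h, and those of members were 1 lower for 96 h. With the nuclear RNA score as covariate, the counts of all genes were 1 higher for 24 h, 14 higher and 20 lower for 48 h, 137 higher and 110 lower for 72 h, 971 higher and 877 lower for 96 h, 717 higher and 374 lower for 96 h against 24 h, 163 higher and 85 lower for 96 h against 72 h and 809 higher and 465 lower for the slope, and those of members were 1 higher for 48 h, 2 higher and 1 lower for 72 h, 1 lower for 96 h and 2 lower for the slope. With the antisense index as covariate, the counts of all genes were 2 higher and 0 lower for 72 h, 98 higher and 37 lower for 96 h, 18 higher and 2 lower for 96 h against 24 h and 14 higher and 2 lower for the slope, and those of members were 3 higher for 96 h, 0 higher and 0 lower for 96 h against 24 h, 2 higher for 96 h against 72 h and 0 higher and 0 lower for the slope. In the 8 libraries with MALAT1 under 200 CPM (chosen after seeing the data), the counts of all genes were 1 higher and 1 lower for 24 h, 305 higher and 165 lower for 96 h, 159 higher and 27 lower for 96 h against 24 h, 3 higher and 0 lower for 96 h against 72 h and 230 higher and 39 lower for the slope, and those of members were 1 lower for 96 h, 6 higher for 96 h against 24 h, 0 higher for 96 h against 72 h and 9 higher for the slope. Leaving out 1 library at a time, the counts of all genes ran from 0 to 1 higher for 24 h, 0 to 2 higher for 48 h, 1 to 26 higher and 0 to 9 lower for 72 h, 123 to 612 higher and 51 to 422 lower for 96 h, 189 to 427 higher and 34 to 153 lower for 96 h against 24 h, 5 to 156 higher and 0 to 87 lower for 96 h against 72 h and 233 to 412 higher and 47 to 147 lower for the slope, and those of members from 3 to 16 higher and 0 to 1 lower for 96 h and 0 to 9 higher and 0 to 1 lower for 96 h against 72 h. An arm left with 1 library is assumed to vary like the other groups. The member called lower at 96 h in these counts was TXNIP. From CPM not divided by length, the shares of isoenzymes became HK2 19.5% at 96 h and 16.3% in untreated cells, PFKP 69.5% at 96 h and 69.0% in untreated cells, ALDOC 2.34% in untreated cells, ENO2 4.55% at 96 h and 3.97% in untreated cells, LDHA 78.2% at 96 h and 75.2% in untreated cells, PDK1 72.7% at 96 h and 74.1% in untreated cells, SLC16A3 82.0% at 96 h and 76.4% in untreated cells. The sign turned for uncalled genes: at 96 h against untreated cells LDHB was 0.0515 and ARRDC4 0.0817 with the antisense index, and with 1 library left out LDHB ran from -0.0749 to 0.0428, MPC1 from -0.215 to 0.0337 and ARRDC4 from -0.301 to 0.0279, for MPC1 and ARRDC4 above 0 only without untreated replicate 1. The cause was not tested. Same-numbered libraries did not deviate together (26 pairs, median correlation -0.03, 11 over 0.1, 6 of 14 libraries closest to one of their own number), so the numbers were not taken as pairs. With the block 13 of the 15 calls at 96 h remained. Depth limits PFKFB2, ENO3, PDK3 and PDK4, whose SEs were 0.23 to 0.48, and 2 untreated libraries limit every contrast with untreated cells.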
